A study of Mus musculus with 2 samples.

Results

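Chemokines are small secreted proteins that steer migrating cells, and their receptors are proteins of the cell surface coupled to G proteins. The genes described here are the feature rows of the deposited tables whose symbol is Ccl, Cxcl, Ccr or Cxcr with a number and, where present, a letter, together with Cx3cl1, Cx3cr1, Xcl1, Xcr1 and Ackr1 to Ackr4. By that rule there were 66 rows of 28001, with 60 distinct symbols: 38 ligands, 18 receptors and 4 atypical receptors. The rule used names only and no measured value. For 5 symbols there was more than 1 row, and UMIs of rows with the same symbol were summed.

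Single cells of regenerating mouse digit tips were profiled with droplet RNA sequencing of transcript 3′ ends, in 2 libraries, 1 from PdgfraCreERT;R26-LSL-TdT mice and 1 from Lmx1bCreERT2;R26-LSL-TdT mice. Both lines carried the same reporter, tdTomato at the Rosa26 locus behind a stop cassette, and in both the mice were 10 to 12 weeks old, were given 3 mg of tamoxifen per day on 4 days, and lost the digit tip 10 days afterwards. The regrown tissue was taken at 14 days and was dissociated in Liberase at 280 ug/ml for 1 to 4 hours and passed through a 20 um strainer. No untreated, uninjured or unlabelled control group was analysed here, and the number of mice per library was not given in the sources used here. The reporter marks cells in which the Pdgfra or the Lmx1b driver was active around the time of tamoxifen, and their progeny, so tdTomato does not report present use of either gene. With 1 library per line, the line, the library and anything else that differed between the 2 preparations cannot be told apart. No difference between the libraries has a replicate check.

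A chemokine binds a receptor on another cell, which then moves up the gradient or is held in place. Receptors of the CC, CXC, CX3C and XC families signal through inhibitory G proteins, and many of them bind several ligands. The 4 atypical receptors (Ackr1 to Ackr4) do not couple to G proteins and are known to take up, transport or present chemokine instead. In healing tissue, chemokines of the CCL2 and CXCL1 groups are known for calling in monocytes and neutrophils, and CXCL12 with its receptor CXCR4 for holding or guiding stem cells, vessels and leukocytes.

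Values are counts of unique molecular identifiers (UMIs), each standing for 1 captured transcript. The Lmx1b library held 5991 barcodes with 66867027 UMIs in all and the Pdgfra library 5032 barcodes with 49084751 UMIs, and 2744 and 2309 cells were kept after filtering, at median depths of 17084 and 9774 UMIs. The libraries shared 10 barcodes as deposited and 1 among kept cells. A cell was gated to the class whose marker list was best represented in it, with at least 3 markers above their level over the whole library, and no marker was a member of these gene families. This placed 2518 and 2027 cells. Summed macrophage markers were at 11424 and 10014 CPM (UMIs per 1000000 UMIs) in macrophages, at 13.1 and 17.5 CPM in mesenchymal cells, at 107 and 199 CPM in mural cells, where Plac8 made up 92.8 and 178 CPM, and at 769 and 632 CPM in osteoclasts, where Csf1r made up 625 and 548 CPM. The large classes were mesenchymal cells (769 and 624), endothelial cells (674 and 459), mural cells, which are pericytes and smooth muscle (370 and 298), chondrocytes (162 and 120), osteoblasts (169 and 75), epithelial cells (133 and 124) and macrophages with monocytes (108 and 105). Schwann cells numbered 33 and 88, T and NK cells 21 and 28, and osteoclasts 21 and 30. Neutrophils (20 and 3), dendritic cells (17 and 15) and lymphatic endothelial cells (3 and 14) were few, and their values rest on those cells. In each pair of values below the Lmx1b library comes before the Pdgfra library.

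Chemokine genes took up little of the sequencing, 0.113% and 0.0899% of the UMIs of kept cells. A member counted as measured with at least 20 UMIs over the gated cells of a library. That held for 40 members in the Lmx1b library (26 ligands, 10 receptors and 4 atypical receptors) and for 36 in the Pdgfra library (23, 9 and 4), all 36 of which were measured in both. Another 14 and 15 members had UMIs below that limit, and 6 and 9 had 0 UMIs. Ccl26, Ccl21b, Ccl21c, Ccl27b and Ccr8 were at 0 in both libraries. Those below the limit ranged from 1 UMI to 15 and 17 UMIs. Levels are CPM from the summed UMIs of a class, with exact 95% Poisson intervals in brackets. Shares of cells carry exact Clopper-Pearson 95% intervals, and all intervals and limits cover counting error only, not the spread between cells or animals. Because 3′ libraries count transcript ends, a gene's UMIs do not grow with its length.

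Many chemokine genes lie in clusters, and of the 59 rows found in the GENCODE vM21 annotation of mm10, 14 were on chromosome 11, 13 on chromosome 9 and 10 on chromosome 5. Cxcl1 (chr5:90891241-90893115, plus strand) and Cxcl2 (chr5:90903871-90905938, plus strand) are neighbours and encode neutrophil attractants. Cxcl10, which encodes an interferon-induced attractant of T cells, lies further along (chr5:92346638-92348889, minus strand), and Cxcl12 stands alone on chromosome 6 (chr6:117168535-117181367, plus strand). The 250 bases before the RefSeq start of these 4 genes (GRCm38.p6) are printed as examples. The genes were picked with their levels in these data known. Capitals mark matches, on either strand, to a form of the NF-kB site (GGG, any 3 bases, TTCC), to the AP-1 site (TGANTCA) or to a form of the interferon-response element (TTTC, any 2 bases, TTTC). Where matches overlap they run together.
Cxcl1 (chr5:90890995-90891244, plus strand): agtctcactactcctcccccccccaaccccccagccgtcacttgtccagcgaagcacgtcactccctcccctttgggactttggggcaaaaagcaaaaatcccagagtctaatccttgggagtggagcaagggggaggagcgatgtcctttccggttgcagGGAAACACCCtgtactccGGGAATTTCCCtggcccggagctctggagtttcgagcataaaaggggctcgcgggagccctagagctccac
Cxcl2 (chr5:90903649-90903898, plus strand): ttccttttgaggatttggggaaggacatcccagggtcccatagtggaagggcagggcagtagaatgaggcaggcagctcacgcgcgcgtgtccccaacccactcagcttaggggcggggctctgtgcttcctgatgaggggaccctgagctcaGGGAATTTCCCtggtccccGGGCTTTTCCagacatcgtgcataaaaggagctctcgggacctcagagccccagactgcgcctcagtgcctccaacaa
Cxcl10 (chr5:92348890-92349139, minus strand): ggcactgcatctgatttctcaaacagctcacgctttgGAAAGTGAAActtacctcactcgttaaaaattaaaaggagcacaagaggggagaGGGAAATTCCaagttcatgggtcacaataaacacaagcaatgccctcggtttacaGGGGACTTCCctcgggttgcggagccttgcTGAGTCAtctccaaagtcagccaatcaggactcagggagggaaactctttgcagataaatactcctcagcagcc
Cxcl12 (chr6:117168285-117168534, plus strand): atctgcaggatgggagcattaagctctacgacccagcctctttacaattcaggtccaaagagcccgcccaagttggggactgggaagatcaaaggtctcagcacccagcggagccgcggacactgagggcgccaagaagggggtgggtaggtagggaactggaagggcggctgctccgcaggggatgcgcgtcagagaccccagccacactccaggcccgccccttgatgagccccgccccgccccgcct
The Cxcl1 and Cxcl2 windows each held 3 NF-kB matches, 2 of them overlapping. The Cxcl10 window held 4 matches, to all 3 motifs, and the Cxcl12 window 0. A window of this kind was found for 45 of the 60 members. Some members had more than 1 window, and the 45 had 52 in all. The NF-kB letters were present for 9 of those 45 (Ccl1, Ccl20, Ccl9, Ccr3, Ccr6, Cxcl1, Cxcl10, Cxcl2 and Cxcl3), in 9 of the 52 windows. They were present in 4.65% of all 32851 windows. The AP-1 letters were present for 6 members, in 6 of the 52 windows, and in 6.75% of all windows. The interferon letters were present for 3 members (Ccl19, Cxcl10 and Cxcl14), in 3 of the 52 windows, and in 2.98% of all windows. A match describes letters and shows no binding. Whether the letters go with the level of a gene or the share of cells that carry it was not tested.

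The shares of cells with a UMI of any chemokine gene were compared at equal depth, after drawing 3000 UMIs at random from each cell and leaving out shallower cells (54 and 150 mesenchymal, 81 and 174 endothelial, 43 and 53 mural, 17 and 13 osteoblast, 30 and 29 chondrocyte, 42 and 46 epithelial, 5 and 7 macrophage and 1 and 16 Schwann cells). Among the 10 classes with at least 20 cells in each library, macrophages had the highest share of ligand-positive cells, 95.1% (89.0 to 98.4%) of 103 cells and 96.9% (91.3 to 99.4%) of 98 cells. Structural classes came below them, although osteoclasts (90.5% and 76.7% of 21 and 30 cells) overlapped macrophages within counting error in the Lmx1b library. A ligand UMI was seen in 58.9% and 60.8% of mesenchymal cells, 55.6% and 59.3% of endothelial cells, 52.0% and 51.0% of mural cells and 75.0% and 63.9% of Schwann cells. Osteoblasts (11.8% and 16.1%) and chondrocytes (9.85% and 14.3%) had the lowest shares in both libraries. Without thinning the shares were 98.1% and 98.1% for macrophages, 87.1% and 83.8% for mesenchymal cells, 77.4% and 65.4% for endothelial cells, 79.2% and 74.2% for mural cells, 100% and 85.2% for Schwann cells, 49.1% and 52.0% for osteoblasts and 49.4% and 40.8% for chondrocytes. Epithelial cells differed between the libraries, at 37.4% (27.4 to 48.1%) and 83.3% (73.2 to 90.8%), or 63.2% and 87.1% unthinned. Free RNA in a droplet can give a UMI to a cell that does not express the gene. As 1 example of that background, Krt10 was followed, a keratin gene at 16085 and 217 CPM in epithelial cells. At equal depth it was seen in 12.7% and 6.54% of mesenchymal and 9.87% and 4.84% of osteoblast cells. Chondrocytes had it in 9.09% and 5.49% of cells and macrophages in 5.83% and 0%. The Krt10 share depends on its own abundance, so it does not set the background of other genes. The ligand shares of osteoblasts and chondrocytes are near the Krt10 shares in the Lmx1b library. In the Pdgfra library the osteoblast ligand share was higher, 16.1% (8.02 to 27.7%) against 4.84% (1.01 to 13.5%). That of chondrocytes was 14.3% (7.83 to 23.2%) against 5.49% (1.81 to 12.4%). These intervals overlap, and no expression is read from the shares in either library.

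Receptors had another distribution, and were highest in leukocytes and osteoclasts. A receptor UMI was seen in 90.5% (69.6 to 98.8%) and 92.6% (75.7 to 99.1%) of T and NK cells, 79.6% and 80.6% of macrophages and 52.4% and 63.3% of osteoclasts. Among structural cells endothelium stood out, at 11.3% (8.86 to 14.1%) of 593 cells and 10.9% (7.51 to 15.1%) of 285 cells. Mesenchymal cells were at 1.12% (0.484 to 2.19%) of 715 cells and 1.90% (0.872 to 3.57%) of 474 cells, and osteoblasts at 0 of 152 and 0 of 62 cells, whose intervals reach 2.40% and 5.78%. Unthinned, T and NK cells were at 100% and 92.9%, macrophages at 95.4% and 93.3%, osteoclasts at 90.5% and 96.7%, endothelial cells at 24.6% and 19.0%, mesenchymal cells at 8.58% and 7.53% and osteoblasts at 8.88% and 6.67%. Cells with both a ligand and a receptor UMI made up 76.7% and 78.6% of macrophages, against 4.89% and 7.72% of endothelial cells and 0.699% and 1.05% of mesenchymal cells.

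Receptor shares of mesenchymal cells and osteoblasts are below the Krt10 shares and are not read as expression. The share of 1 abundant gene cannot exclude expression either. Atypical receptors had a further distribution. A UMI of one was seen in 28.7% (25.1 to 32.5%) and 13.3% (9.61 to 17.8%) of endothelial cells, 17.8% and 14.5% of osteoblasts, 18.2% and 13.2% of chondrocytes and 14.3% and 12.2% of mesenchymal cells. Schwann cells were at 21.9% and 11.1% and epithelial cells at 8.79% and 17.9%. Krt10 was in 8.94% (6.77 to 11.5%) and 3.16% (1.45 to 5.91%) of endothelial cells, below their atypical receptor shares. The endothelial receptor share overlapped it within counting error in the Lmx1b library only. Atypical receptor shares overlapped the Krt10 shares in osteoblasts, chondrocytes and Schwann cells of both libraries (Krt10 6.25% and 15.3% in Schwann cells). So did that of mesenchymal cells in the Lmx1b library (Krt10 12.7%). Overlapping shares alone do not separate a gene from such background. Macrophages had an atypical receptor UMI in 0.971% and 0% of cells (0 of 98, interval up to 3.69%). Unthinned, the shares were 52.1% and 25.1% in endothelial cells, 53.3% and 49.3% in osteoblasts, 57.4% and 47.5% in chondrocytes, 53.3% and 38.8% in mesenchymal cells, 33.3% and 30.7% in Schwann cells, 20.3% and 37.1% in epithelial cells and 11.1% and 2.86% in macrophages. The plot of cells with any ligand, receptor or atypical receptor sets the libraries side by side for each class.

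**Figure D1:**
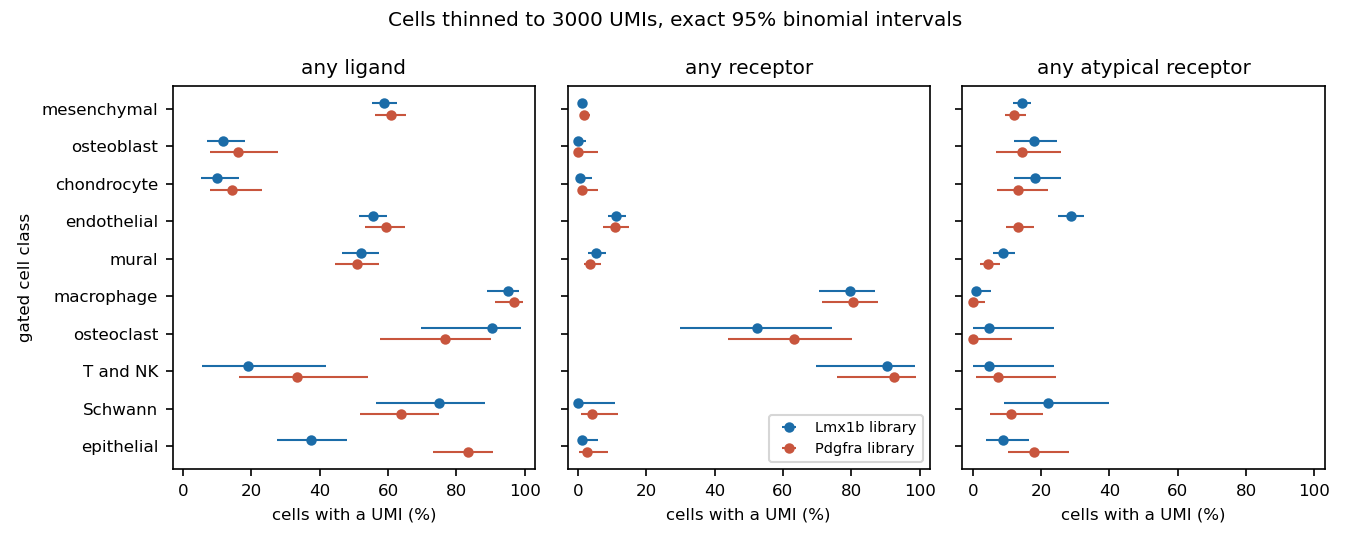
Share of cells (%) with at least 1 UMI of any ligand, any receptor or any atypical receptor (x axes), by gated class (y axis), in cells thinned to 3000 UMIs; points are libraries and bars exact 95% binomial intervals. Macrophages are high for ligands (95.1% and 96.9%) and receptors (79.6% and 80.6%), while mesenchymal cells are high for ligands only (58.9% and 60.8%).

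For each class, members were then set against all other gated cells of the library, and called at a fold of 2 or more. With cells from 1 library a call is a size and not a test, and it is read beside the share of all measured genes past the same fold. In macrophages 22 of 40 members were at least 2-fold higher in the Lmx1b library, where 12.4% of all measured genes were, and 15 of 36 in the Pdgfra library, where 11.1% were. The median member was 2.40 higher than in other cells on the log2 scale, against -0.14 for all genes in the Lmx1b library, and 0.11 against -0.21 in the Pdgfra library. In these medians a gene at 0 UMIs on either side was entered at 3 counts. Mural cells had 6 of 40 and 7 of 36 members higher (9.97% and 7.74% of all genes), and T and NK cells 7 of 40 and 8 of 36 (15.2% and 14.2%). Endothelial cells had 6 of 40 and 4 of 36 (15.0% and 12.7%), and Schwann cells 5 of 40 and 4 of 36 (17.6% and 14.1%). Endothelial and Schwann shares lie near or below the background of all genes. Mesenchymal cells had 4 of 40 and 4 of 36 members higher, against 9.21% and 8.35% of all genes, and osteoclasts 8 of 40 and 3 of 36, against 13.0% and 12.6%. Their median member was lower than elsewhere, at -2.40 and -3.26 in mesenchymal cells against -0.08 and -0.16 for all genes. Osteoblasts had 0 of 40 and 0 of 36 members higher (3.28% and 3.52% of all genes), and chondrocytes 0 of 40 and 1 of 36 (4.43% and 4.55%). Epithelial cells had 0 of 40 and 2 of 36 (10.8% and 11.8%). In the 20 neutrophils of the Lmx1b library 12 of 40 were higher (13.5%), and in the 40 erythroid cells of the Pdgfra library 10 of 36 (5.91%). These 2 classes held only 82313 and 90980 UMIs in all, so a few UMIs can carry a member past 2-fold. In the erythroid class 1 UMI was 11.0 CPM, and 27 of the 40 cells had only the minimum of 3 markers on.

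A few genes supplied most of the message. Cxcl12 and Cxcl14 together made up 66.9% and 57.0% of all ligand UMIs in gated cells, and Cxcr4 alone 47.2% and 39.6% of receptor UMIs. In mesenchymal cells Cxcl14 and Cxcl12 were 89.6% and 86.5% of the ligand UMIs. In endothelial cells Cxcl12 was 73.2% and 78.8% of ligand UMIs and Cxcr4 91.5% and 91.2% of receptor UMIs. Of the 36 members measured in both libraries, 24 had the same highest class in each among the 10 classes of at least 20 cells, for 10 of them the macrophage. That share was not taken over all measured genes, so 24 of 36 is not read as particular to these members. The plot of ligands by cell class shows the mesenchymal, mural and macrophage blocks side by side.

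**Figure D2:**
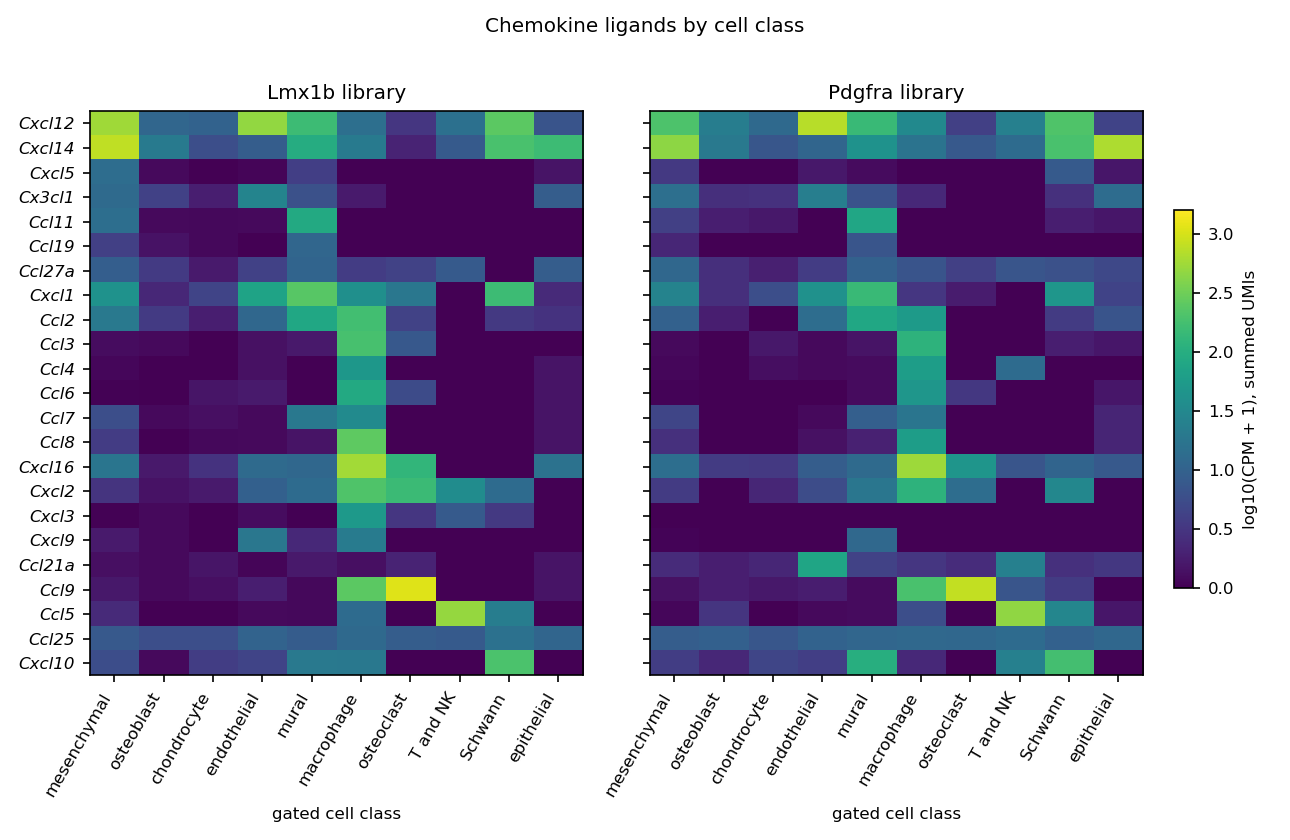
Level of the ligands measured in both libraries (rows) in 10 gated classes (columns), as log10(CPM + 1) of summed UMIs, 1 panel per library. Cxcl12 and Cxcl14 are bright in mesenchymal cells (547 and 204 CPM, 775 and 454 CPM), Ccl9 in osteoclasts (1091 and 804 CPM) and Cxcl16 in macrophages (576 and 536 CPM).

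Cxcl12, the ligand of CXCR4 and ACKR3, came from mesenchyme and endothelium. In mesenchymal cells it was at 547 CPM (537 to 557) and 204 CPM (197 to 211). In endothelial cells it was at 480 CPM (467 to 494) and 713 CPM (689.7 to 736). The order of these sources thus differed between the libraries, with mesenchyme first in one and endothelium first in the other. Schwann cells were at 245 CPM (199 to 297) and 206 CPM (180 to 234), the latter level with mesenchyme. Mural cells were at 157 and 146 CPM, although 1 mural cell held 26.9% and 42.7% of the mural UMIs, and without it the levels were 115 and 84.5 CPM. Osteoblasts (10.3 and 21.8 CPM) and chondrocytes (9.11 and 11.3 CPM) had little. At equal depth Cxcl12 was seen in 42.7% and 34.2% of mesenchymal and 38.8% and 41.1% of endothelial cells, against 3.03% and 3.30% of chondrocytes and 3.88% and 2.04% of macrophages. Unthinned, the mesenchymal share was 70.2% and 62.5% at median depths of 25196 and 20364 UMIs, and that of chondrocytes 18.5% and 14.2% at 41514 and 4738 UMIs. The difference between these classes is therefore larger than the counting error at equal depth.

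Cxcl14, which encodes a chemokine made constitutively in skin and connective tissue, was the leading mesenchymal ligand. It was at 775 CPM (763 to 787) and 454 CPM (443 to 465) there, 21.0-fold (19.8 to 22.3) and 5.89-fold (5.59 to 6.22) above other gated cells. Cells with Cxcl12 also carried it more often: at equal depth 57.7% (51.9 to 63.3%) and 56.8% (48.8 to 64.5%) of Cxcl12-positive mesenchymal cells had a Cxcl14 UMI, against 20.0% (16.2 to 24.2%) and 31.4% (26.3 to 36.9%) of the others (unthinned 61.7% and 68.5%, against 25.3% and 38.5%). Schwann and epithelial cells also carried it. In Schwann cells it was at 191 CPM (151 to 238) and 188 CPM (164 to 215). In epithelial cells it was at 155 CPM (139 to 173) and 639.7 CPM (603 to 678), so that the epithelial level was below the mesenchymal one in the Lmx1b library and above it in the Pdgfra library. The epithelial classes were not made up alike. Krt1 and Krt10, keratins of the suprabasal epidermis, were at 5205 and 16085 CPM in the Lmx1b library and at 140 and 217 CPM in the Pdgfra library, and the part of this make-up in the Cxcl14 difference was not tested.

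**Figure D3:**
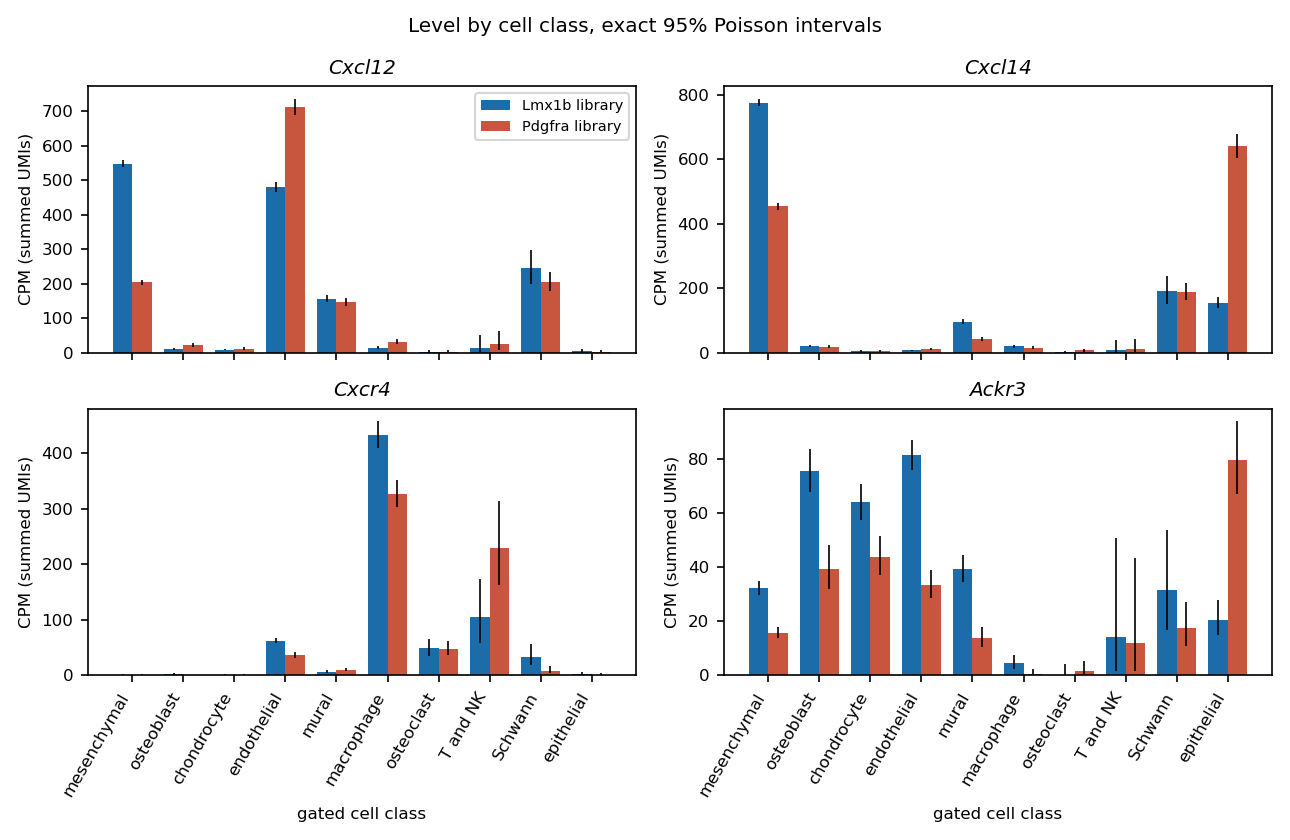
Level (CPM of summed UMIs, y axes, linear from 0) of Cxcl12, Cxcl14, Cxcr4 and Ackr3 by gated class (x axes); bars are libraries and error bars exact 95% Poisson intervals. Cxcl12 is high in mesenchymal and endothelial cells, Cxcr4 in macrophages (433 and 326 CPM), and Ackr3 in endothelial, skeletal and, in the Pdgfra library, epithelial cells (79.7 CPM).

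Mural cells carried several inflammatory ligands. Cxcl1 was at 230 CPM (218 to 242) and 148 CPM (137 to 161) in mural cells, 6.06-fold (5.65 to 6.50) and 7.11-fold (6.36 to 7.95) above other cells. Ccl11, which encodes the eosinophil attractant eotaxin, was at 86.3 and 78.4 CPM there, 14.7-fold and 50.6-fold higher. Ccl2, the main monocyte attractant, was at 80.5 and 79.4 CPM, 3.79-fold and 7.20-fold higher. Ccl7, a relative of Ccl2, was at 18.0 and 8.44 CPM, and Ccl19, a ligand of CCR7, at 10.3 and 5.96 CPM. All 5 of these genes were past 2-fold in mural cells of both libraries. Macrophages had Ccl2 at 169.7 and 54.6 CPM and Ccl7 at 33.0 and 16.3 CPM, above the mural level for Ccl7 in both libraries and for Ccl2 in the Lmx1b library.

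Within the mural class Cxcl1 and Ccl2 tended to be in the same cells. At equal depth Ccl2 was seen in 27.3% (16.1 to 41.0%) and 33.3% (20.4 to 48.4%) of Cxcl1-positive cells, against 4.04% (2.04 to 7.12%) and 6.09% (3.19 to 10.4%) of the others (unthinned 37.1% and 45.2%, against 4.76% and 8.88%). Cxcl1 itself was in 16.8% and 19.6% of mural cells at equal depth (26.2% and 28.2% unthinned), against 0% and 4.40% of chondrocytes (7.41% and 7.50% unthinned), so most mural cells had no Cxcl1 UMI. A list of 14 immediate early and heat shock genes known to respond to tissue dissociation moved with it: their summed level was 6846 CPM in Cxcl1-positive and 2949 CPM in other mural cells of the Lmx1b library, and 11472 and 2583 CPM in the Pdgfra library. In mural cells as a whole 3 and 2 of the 14 genes were at least 2-fold higher than in other cells and 0 lower. The part of dissociation in the Cxcl1 level was not tested.

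Cxcl10 was found in patches of Schwann and mural cells. It was at 196 CPM (156 to 244) and 172 CPM (149 to 198) in Schwann cells, in 7 of 33 and 22 of 88 cells. The highest cell held 37.0% and 39.0% of those UMIs, and without it the levels were 126 and 106 CPM. In mural cells it was at 18.9 CPM (15.5 to 22.6) and 99.3 CPM (89.8 to 109), from 114 UMIs in 24 cells and 400 UMIs in 23 cells. The mural libraries thus differed in UMIs per positive cell and not in the number of positive cells. Cxcl9, another interferon-induced ligand of CXCR3, had 182 UMIs in endothelial cells of the Lmx1b library, of which 181 came from 3 cells, and 0 UMIs in those of the Pdgfra library.

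Macrophages carried many ligands. Cxcl16, which is made as a transmembrane protein and binds CXCR6, was the most abundant there, at 576 CPM (549 to 604) and 536 CPM (506 to 567), 36.8-fold (33.8 to 40.1) and 40.8-fold (36.6 to 45.6) above other cells. It was found in 92.6% and 93.3% of macrophages, 71.8% and 79.6% at equal depth, against 0.658% and 0% of osteoblasts. Its level was nearly the same in both libraries. Ccl3 was at 184 and 117 CPM, Ccl4 at 47.8 and 58.6 CPM (35.6 CPM in the Pdgfra library without its highest cell) and Ccl6 at 87.3 and 47.6 CPM in macrophages. Ccl3 and Ccl6 encode ligands of CCR1. Cxcl2 was at 205 and 117 CPM in macrophages, and in the 20 neutrophils of the Lmx1b library at 5552 CPM (5055 to 6085), where 14 cells carried it.

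Some macrophage ligands came from very few cells. Ccl8, a monocyte attractant, had 738 UMIs in the 108 macrophages of the Lmx1b library, in 14 cells, the 3 highest of which held 84.3%. In the Pdgfra library it had 133 UMIs in 2 of 105 cells. Cxcl3 had 154 UMIs in 6 macrophages, 130 of them in 1 cell, and 0 UMIs in macrophages of the Pdgfra library. Levels of these genes describe those cells and not the class.

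Osteoclasts were marked by Ccl9, which encodes a CCR1 ligand. It was at 1091 CPM (1024 to 1161) and 804 CPM (756 to 854), 65.3-fold (59.6 to 71.6) and 53.9-fold (48.5 to 59.9) above other cells, and made up 76.9% and 90.3% of the ligand UMIs of the class. It was found in 21 of 21 and 29 of 30 osteoclasts. Macrophages had 247 and 191 CPM of it, the 17 and 15 dendritic cells 405 and 327 CPM, and all other classes of at least 20 cells in both libraries under 10 CPM. Ccr1 was also high in osteoclasts, as given with the receptors below.

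T and NK cells made few ligands. Ccl5 was at 492 and 469.9 CPM in them, but from 3 of 21 cells and 1 of 28 cells, so the class level rests on those cells. Xcl1, whose product binds XCR1 on dendritic cells, had 9 and 2 UMIs. Ccl21a, which encodes the lymphatic ligand of CCR7, was at 8193 CPM in the 3 lymphatic endothelial cells of the Lmx1b library, with 77.6% of it in 1 cell, and at 13976 CPM in the 14 of the Pdgfra library. Endothelial cells outside that class had 1 UMI and 388 UMIs of it, the latter in 20 cells, the 3 highest of which held 73.2%. Of these 20 cells 10 had at least 1 lymphatic marker on and 4 had 3 on. At least 1 was also on in 8 of the 11 Ccl2-positive endothelial cells of the Pdgfra library, so 1 marker alone does not set a cell apart as lymphatic.

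Cx3cl1, Ccl25 and Ccl27a were low and broad. Cx3cl1, the membrane-bound ligand of CX3CR1, was at 26.6 CPM (23.5 to 29.9) and 22.1 CPM (18.2 to 26.6) in endothelial cells and at 11.7 and 13.9 CPM in mesenchymal cells. Macrophages, which carry the receptor, had 0.687 and 1.32 CPM of the ligand. Ccl27a was at 8.12 and 10.7 CPM in mesenchymal and at 9.76 and 8.93 CPM in mural cells. Ccl25 was at 6.82 and 7.87 CPM in mesenchymal cells and at 11.3 and 11.0 CPM in macrophages, whose intervals (7.81 to 15.9 and 7.13 to 16.3) overlap those of mesenchyme in the Pdgfra library (6.51 to 9.43) and, narrowly, in the Lmx1b library (5.75 to 8.04).

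Among the receptors, Cxcr4 had the widest reach. It was at 433 CPM (409 to 457) and 326 CPM (303 to 351) in macrophages, 21.8-fold (20.1 to 23.7) and 27.2-fold (24.1 to 30.8) above other cells, in 87.0% and 87.6% of them. T and NK cells had 105 CPM (59.0 to 174) and 229 CPM (162 to 314), endothelial cells 62.7 CPM (57.9 to 67.7) and 36.6 CPM (31.5 to 42.2), and osteoclasts 48.8 and 48.1 CPM. The 20 neutrophils of the Lmx1b library were at 1591 CPM (1331 to 1889). Mesenchymal cells, a main source of the ligand, had 1.49 and 1.28 CPM of the receptor. At equal depth Cxcr4 was seen in 10.6% (8.26 to 13.4%) and 9.82% (6.63 to 13.9%) of endothelial cells, against 0.280% and 0.633% of mesenchymal cells (unthinned 23.1% and 15.7%, against 3.90% and 2.24%). In the Pdgfra library 1 endothelial cell held 28.9% of the endothelial Cxcr4 UMIs, and without it the level was 26.3 CPM. The endothelial class thus had message for both ligand and receptor, while mesenchyme had little receptor.

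**Figure D4:**
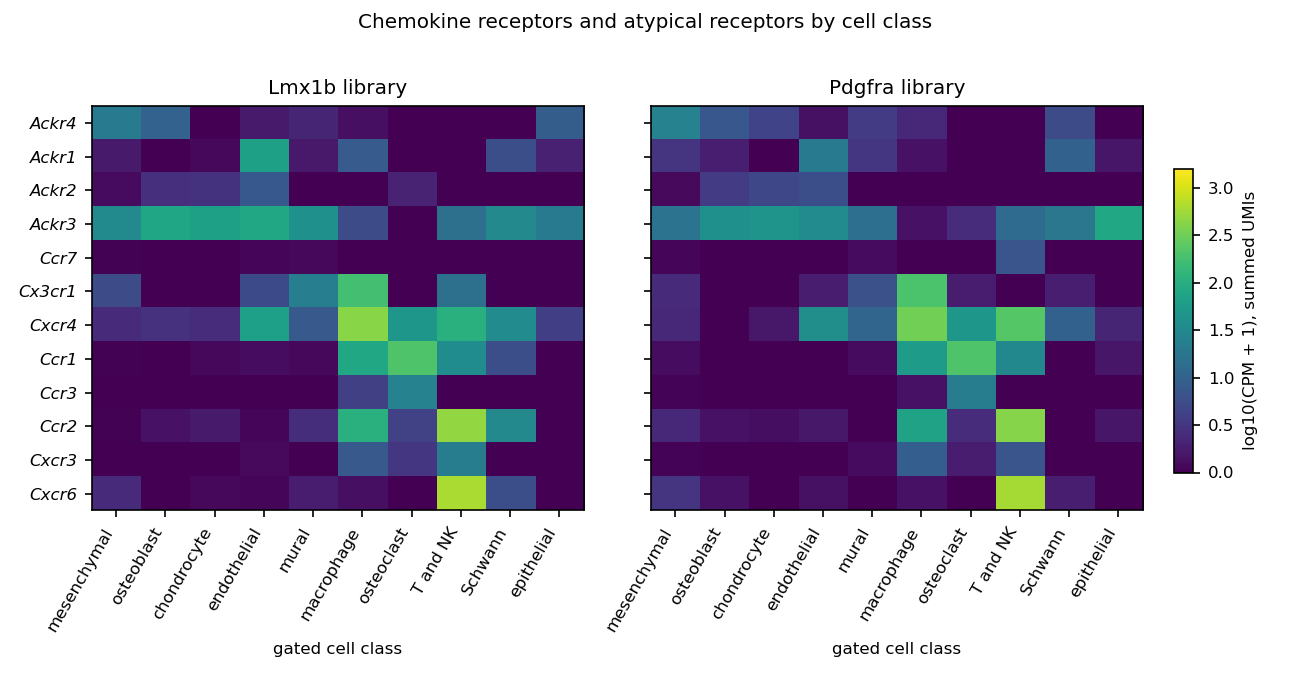
Level of receptors and atypical receptors measured in both libraries (rows) in 10 gated classes (columns), as log10(CPM + 1) of summed UMIs, 1 panel per library. Signalling receptors are bright in macrophages, osteoclasts and T and NK cells (Cxcr6 626 and 578 CPM there), and the atypical receptors in endothelial, skeletal and mesenchymal cells.

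Macrophages carried several receptors besides Cxcr4. Cx3cr1, the fractalkine receptor, was at 173 CPM (158 to 189) and 194 CPM (177 to 213) in macrophages, 31.3-fold and 99.0-fold above other cells. Ccr2, the CCL2 receptor of recently arrived monocytes, was at 108 and 67.8 CPM, in 29.6% and 22.9% of macrophages. Cxcr3, the receptor of Cxcl9 and Cxcl10, was at 6.87 and 7.93 CPM. Ccr2 and Cx3cr1 were found together in some macrophages: at equal depth Cx3cr1 was in 31.6% and 45.5% of Ccr2-positive and 27.4% and 33.3% of Ccr2-negative macrophages, with overlapping intervals (12.6 to 56.6% and 16.7 to 76.6%, against 18.2 to 38.2% and 23.6 to 44.3%). Only 19 and 11 Ccr2-positive macrophages enter that comparison. At full depth, where deeper cells show more of both genes, the shares were 68.8% and 66.7% against 42.1% and 48.1%.

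Outside macrophages Cx3cr1 came from few cells. In mural cells of the Lmx1b library it had 134 UMIs in 5 cells, 96 of them in 1, and 0 of these 5 cells had 3 macrophage markers on. In mesenchymal cells of that library it had 94 UMIs in 8 cells.

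T and NK cells carried their own receptors. Cxcr6, the CXCL16 receptor of tissue-resident lymphocytes, was at 626 CPM (503 to 770.1) and 578 CPM (468 to 706) in them, 832-fold and 591-fold above other cells, in 14 of 21 and 24 of 28 cells. Ccr2 was at 478 CPM (371 to 606) and 416 CPM (323 to 526), above macrophages in each library. Ccr6 had 6 and 7 UMIs in them, in 6 cells of each library. Dendritic cells, at 17 and 15 cells, were at 324 and 837 CPM of Ccr2 and at 189 and 91.6 CPM of Ccr7, the receptor that guides them to lymph nodes. In the Lmx1b library 1 cell held 58.7% of that Ccr7, and without it the level was 82.5 CPM.

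Osteoclasts had Ccr1 and Ccr3. Ccr1 was at 208 CPM (179 to 239.5) and 210 CPM (186 to 236) in osteoclasts, 32.2-fold and 44.3-fold above other cells, and at 81.1 and 58.1 CPM in macrophages. In the neutrophils of the Lmx1b library it was at 838 CPM (652 to 1061), together with Cxcr2, the main neutrophil receptor, at 656 CPM (493 to 856). Ccr3, the eotaxin receptor, was at 25.5 CPM (16.2 to 38.3) and 21.4 CPM (14.2 to 30.9) in osteoclasts, with 23 and 28 UMIs in 8 of 21 and 11 of 30 cells. Those were 71.9% and 93.3% of its UMIs in gated cells. After thinning, 0 of 21 and 3.33% of 30 osteoclasts had a Ccr3 UMI, so its presence is read from full depth only.

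The atypical receptors were shared out among structural classes. Ackr3, a scavenger of CXCL12, was at 81.4 CPM (76.0 to 87.1) and 33.5 CPM (28.6 to 38.9) in endothelial cells, 75.7 and 39.4 CPM in osteoblasts, 64.1 and 43.8 CPM in chondrocytes and 32.2 and 15.7 CPM in mesenchymal cells. Osteoblasts and chondrocytes, which had little of any ligand, thus had it above the mesenchymal level, with 16.4% and 12.9% of osteoblasts and 17.4% and 13.2% of chondrocytes carrying a UMI at equal depth against 8.11% and 4.22% of mesenchymal cells. Unthinned, these shares were 42.6% and 37.3%, 55.6% and 42.5%, and 36.0% and 16.8%. In macrophages it was at 4.47 and 0.440 CPM, and 0% of them carried it at equal depth in either library. Epithelial cells differed between the libraries, at 20.6 CPM (14.9 to 27.8) and 79.7 CPM (67.0 to 94.0), again with the keratin levels given above.

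Ackr1, the chemokine receptor of venular endothelium, was at 64.9 CPM (60.1 to 70.0) and 20.3 CPM (16.6 to 24.7) in endothelial cells, 63.9-fold and 11.0-fold above other cells. It was carried by 123 of 674 and 33 of 459 of them. Ackr1 and Cxcr4 were seldom in the same endothelial cell: at equal depth 0 of 63 and 0 of 28 Cxcr4-positive endothelial cells had an Ackr1 UMI (intervals up to 5.69% and 12.3%), against 12.5% and 4.28% of the others. In the Pdgfra library that difference was within counting error (2.16 to 7.53% in the others). Of Cxcl12-positive endothelial cells 4.78% (2.41 to 8.40%) and 0% (up to 3.10%) had an Ackr1 UMI, against 15.2% (11.6 to 19.3%) and 6.55% (3.31 to 11.4%) of the others. At full depth the Cxcl12 shares were 15.4% (11.8 to 19.4%) and 6.90% (3.82 to 11.3%), against 21.8% (17.3 to 26.9%) and 7.42% (4.53 to 11.3%). Those intervals overlap in both libraries, so the Cxcl12 difference was beyond counting error only after thinning. Ackr3 went the other way from Ackr1, with 33.3% (22.0 to 46.3%) of Cxcr4-positive against 15.5% (12.5 to 18.8%) of Cxcr4-negative endothelial cells in the Lmx1b library. In the Pdgfra library those shares were 10.7% (2.27 to 28.2%) and 7.78% (4.82 to 11.8%), a difference within counting error, and at full depth 59.0% and 38.9% of Cxcr4-positive against 32.0% and 14.7% of other endothelial cells had Ackr3. Without thinning, Ackr1 was in 6.41% of Cxcr4-positive and 21.8% of Cxcr4-negative endothelial cells of the Lmx1b library, and in 0% and 8.53% of those of the Pdgfra library.

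Ackr4, which takes up CCL19, CCL21 and CCL25, was highest in mesenchyme among the 10 classes of at least 20 cells in each library. It was at 19.6 CPM (17.7 to 21.6) and 25.5 CPM (23.0 to 28.2) in mesenchymal cells, 8.97-fold (6.98 to 11.6) and 11.2-fold (8.36 to 15.4) above other cells. Osteoblasts had 9.06 and 6.42 CPM and endothelial cells 0.679 and 0.391 CPM. Ackr2, a scavenger of inflammatory CC chemokines, was at 6.69 and 4.89 CPM in endothelial cells and at 157 and 141 CPM in lymphatic endothelial cells, there with 7 and 24 UMIs.

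Genes that work with the receptors were counted from lists chosen for the pathway. Of the 18 receptor signalling genes measured (G protein subunits, arrestins, kinases, Rac and Dock proteins and RGS regulators), 9 and 10 were at least 2-fold higher in macrophages, beside 12.4% and 11.1% of all genes. In mural cells 0 and 0 were higher. Rgs1, which shortens receptor signals, was at 202 and 390.2 CPM in macrophages, 29.2-fold and 40.5-fold above other cells. Of the upstream inflammatory signals, 8 of 15 and 6 of 16 measured were higher in macrophages, among them Il1b (216 and 74.0 CPM) and Tnf (71.8 and 28.2 CPM). Il6 was at 14.2 and 108 CPM in mural cells. Of 4 measured chemokine-like ligands outside the symbol rule, Pf4 and Cklf were higher in macrophages of both libraries, and of 5 such receptors Ccrl2, Cmklr1 and Cd74. Pf4, a CXC chemokine, was at 1485 and 1358 CPM in macrophages. Gpr182, a chemokine scavenger, was at 6.50 and 5.87 CPM in endothelial cells. Rarres2, which encodes the attractant chemerin, was at 467 and 270 CPM in Schwann cells, 226 and 245 CPM in mural cells and 94.7 and 173 CPM in mesenchymal cells, and its receptor gene Cmklr1 at 35.4 and 27.7 CPM in macrophages. Of the proteases that cut chemokines and the proteoglycans that hold them, 4 of 12 and 2 of 11 measured were higher in mesenchymal cells. Beside this, 9.21% and 8.35% of all genes were higher, and 3 of the 12 were lower in the Lmx1b library. Sdc2 was higher in both libraries. So was Mmp2, a gelatinase, at 2048 and 1571 CPM in mesenchymal cells. Mmp2 is also one of the markers that gated that class, so its higher level there was built in. Mmp9, another gelatinase, was at 6591 and 2879 CPM in osteoclasts.

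Ligands and receptors known to bind each other were set side by side by their highest class. Of 40 pairs listed, 29 and 23 had both sides measured, and in 7 and 2 of these the ligand and the receptor were highest in the same class. Classes under 20 cells were left out of this ranking. The same share was not taken for ligands and receptors that do not bind, so these counts show nothing particular to binding pairs. In the Pdgfra library Ccl9 and Ccr1 were both highest in osteoclasts. In the Lmx1b library 6 of the 7 were pairs highest in the 20 neutrophils, and the other was Ccl19 with Ccr7 in mural cells, where Ccr7 had 1 UMI. Most Ccr7 was in dendritic cells (63 UMIs in that library) and B cells (46 UMIs), which were too few to be ranked. Cxcl16 and Cxcr6 joined macrophages to T and NK cells, and Cx3cl1 and Cx3cr1 joined endothelium to macrophages, in both libraries. Message in 2 classes does not show contact or protein.

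The libraries were also set against each other within classes. As each line is 1 library, the values compare 2 libraries. A member was measured here with at least 20 UMIs over both sides of a comparison. In mesenchymal cells 8 of 26 measured members were at least 2-fold higher in the Lmx1b library and 3 of 26 lower, where 3.15% and 2.67% of all genes were. With cells at equal depth 12 members were measured, and 3 were higher and 0 lower (3.32% and 2.58% of all genes). Cxcl12 was 2.68-fold higher (2.58 to 2.79), Ccl11 4.46-fold (3.25 to 6.25), Ccl2 2.13-fold (1.74 to 2.61), Ackr3 2.05-fold (1.76 to 2.39) and Cxcl5, a neutrophil attractant, 5.45-fold (3.82 to 7.99). For Cxcl5, 65.2% of the 267 UMIs of the Lmx1b library came from 3 cells. The summed level of the 14 dissociation genes was lower in mesenchymal cells of the Lmx1b library, at 2666 against 3788 CPM, and higher there for 3 of the 14 genes. Its part in these differences was not tested.

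Macrophages had 11 of 27 members higher and 2 of 27 lower in the Lmx1b library, against 4.42% and 2.64% of all genes. Ccl2 was 3.11-fold higher (2.55 to 3.82), Ccl12 5.96-fold (3.17 to 12.4) and Ccl8 4.33-fold (3.59 to 5.25). Ccl8 and Cxcl3 rest on the few cells described above, and Cxcl1 had 111 UMIs in 10 macrophages, 62 of them in 1 cell, against 5 UMIs in the Pdgfra library. With cells drawn to equal depth 13 members were measured and 3 were higher (4.02% of all genes). Markers of other classes were also higher in macrophages of the Lmx1b library. Summed mural markers were at 622 against 143 CPM (Rgs5 at 287 against 45.8 CPM), endothelial markers at 90.0 against 33.9 CPM and epithelial markers at 88.6 against 22.9 CPM. Their part in these differences was not tested. Cxcl16 (1.07-fold, 0.997 to 1.16), Cx3cr1 (0.890-fold, 0.782 to 1.01) and Ccl4 (0.815-fold, 0.638 to 1.04) were within counting error of no difference.

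Endothelial cells had 4 of 17 members higher and 1 of 17 lower in the Lmx1b library (2.38% and 3.73% of all genes), among them Ackr1 at 3.19-fold (2.59 to 3.96) and Ackr3 at 2.43-fold (2.06 to 2.88). Endothelial Cxcl12 went the other way, 1.48-fold higher (1.42 to 1.55) in the Pdgfra library. Mural cells had 4 of 17 higher and 2 of 17 lower (4.48% and 3.08% of all genes). Ackr3 was 2.82-fold higher there (2.10 to 3.84) and Cxcl14 2.30-fold (1.94 to 2.75), though 1 cell of each library held 43.7% and 35.7% of mural Cxcl14 UMIs, and without it the levels were 54.4 and 27.0 CPM. Cxcl10 was 5.27-fold higher (4.27 to 6.54) in mural cells of the Pdgfra library. Ackr3 was thus higher in the Lmx1b library in mesenchymal, endothelial and mural cells, and lower there in epithelial cells, where 1 of 6 measured members was higher and 2 of 6 lower (8.12% and 11.9% of all genes).

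In the other classes few members were measured in both libraries. Osteoblasts had 0 of 5 higher and 1 of 5 lower in the Lmx1b library (1.85% and 5.30% of all genes), namely Cxcl12. Chondrocytes had 0 of 7 higher and 1 of 7 lower (1.95% and 5.67%), osteoclasts 2 of 7 higher and 0 of 7 lower (3.40% and 4.15%), T and NK cells 0 of 4 higher and 1 of 4 lower (5.55% and 4.90%), and Schwann cells 2 of 8 higher and 1 of 8 lower (3.62% and 6.21%). In osteoclasts Cxcl16 was at 128 against 45.1 CPM and Cxcl2 at 149.8 against 13.0 CPM, though 1 osteoclast held 83.0% of the Cxcl2 of the Lmx1b library. In Schwann cells Cxcl1 was at 153 against 47.6 CPM, with 31.7% and 66.7% of it in 1 cell. In T and NK cells Cxcr4 was the lower member, at 105 against 229 CPM.

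Within the mesenchyme, cells with high tdTomato (at least 1600 CPM of the cell's UMIs, a threshold set in an earlier analysis after the values were seen) were set against the others. In the Lmx1b library 65 cells were high and 704 low, at median depths of 24090 and 25396 UMIs, and the tdTomato of 28 cells was between 800 and 3200 CPM. Of 21 measured members 3 were at least 2-fold higher in the high cells and 11 lower, against 6.46% and 7.36% of all genes. Those higher were Ccl27a at 3.31-fold (2.20 to 4.85), Cx3cl1 at 2.36-fold (1.62 to 3.36) and Ackr4 at 2.27-fold (1.69 to 2.99). Cxcl14 was 1.74-fold higher (1.66 to 1.83) and Cxcl12 1.06-fold (0.991 to 1.14). The inflammatory ligands were lower, with Cxcl1 at 6.80 against 44.8 CPM, Ccl2 at 4.08 against 20.0 CPM, and Ccl11 at 0 against 281 UMIs. Several of the 11 lower members had at most 2 UMIs in the high cells. The count of lower members was 1 of 11 measured with cells at equal depth (11.1% of all genes), 5 with the strict cell filter, 4 with a tdTomato threshold of 3200 CPM and 6 without each gene's highest cell.

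In the Pdgfra library 508 mesenchymal cells were high and 116 low, and the sides differed in depth, at medians of 23806 and 2118 UMIs, with 275 cells between 800 and 3200 CPM. Of 20 measured members 6 were at least 2-fold higher in the high cells and 2 lower, against 8.29% and 3.78% of all genes. Cxcl12 was at 215 against 56.2 CPM, 3.82-fold (2.93 to 5.06), Cxcl14 at 472 against 211 CPM, 2.24-fold (1.95 to 2.58), and Ackr4 at 26.9 against 6.02 CPM, 4.46-fold (2.03 to 12.2). The part of depth in these values was not tested, and with cells at equal depth 3 of 8 measured members were higher (12.8% of all genes). Cxcl1 was 1.05-fold (0.699 to 1.64) there. Ackr4 and Cxcl14 were higher in the tdTomato-high cells of both libraries.

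Nail-associated mesenchyme was taken as mesenchymal cells with at least 3 of 6 nail markers on (Lmx1b, Rspo4, Corin, Rspo1, Rspo3 and Msx1). There were 63 and 159 such cells, 47.6% and 97.5% of them tdTomato-high, at median depths of 24480 and 18846 UMIs against 25506 and 21766 UMIs in other mesenchymal cells. Cxcl14 was at 1761 against 684 CPM in the Lmx1b library, 2.57-fold (2.47 to 2.68), and at 877 against 295 CPM in the Pdgfra library, 2.97-fold (2.83 to 3.11). Cxcl12 was at 998 against 506 CPM, 1.97-fold (1.87 to 2.08), and at 353 against 148 CPM, 2.39-fold (2.22 to 2.57). Cx3cl1 was 2.55-fold (1.81 to 3.54) and 4.03-fold (3.02 to 5.39) higher, Ccl27a 2.75-fold and 1.84-fold, Cxcl16 1.65-fold and 2.43-fold, and Ackr4 1.74-fold and 2.01-fold. Ackr3 was 1.21-fold (0.928 to 1.56) and 1.16-fold (0.866 to 1.54), which is within counting error. When only cells with 1000 or more genes and no more than 5% mitochondrial UMIs were kept, which left 25 nail-marker cells in the Pdgfra library, Cxcl14, Cxcl12 and Ackr4 there were not higher (differences of -0.40, -0.08 and -0.17 in log2(CPM + 1)). In the Lmx1b library Ackr4 was not higher when 2 markers defined the subset (-0.10), nor Cxcl16 with cells at equal depth (-0.63). Cx3cl1 and Ccl27a stayed higher in both libraries in all 10 alternatives run. The plot of mesenchymal subsets sets both contrasts side by side.

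**Figure D5:**
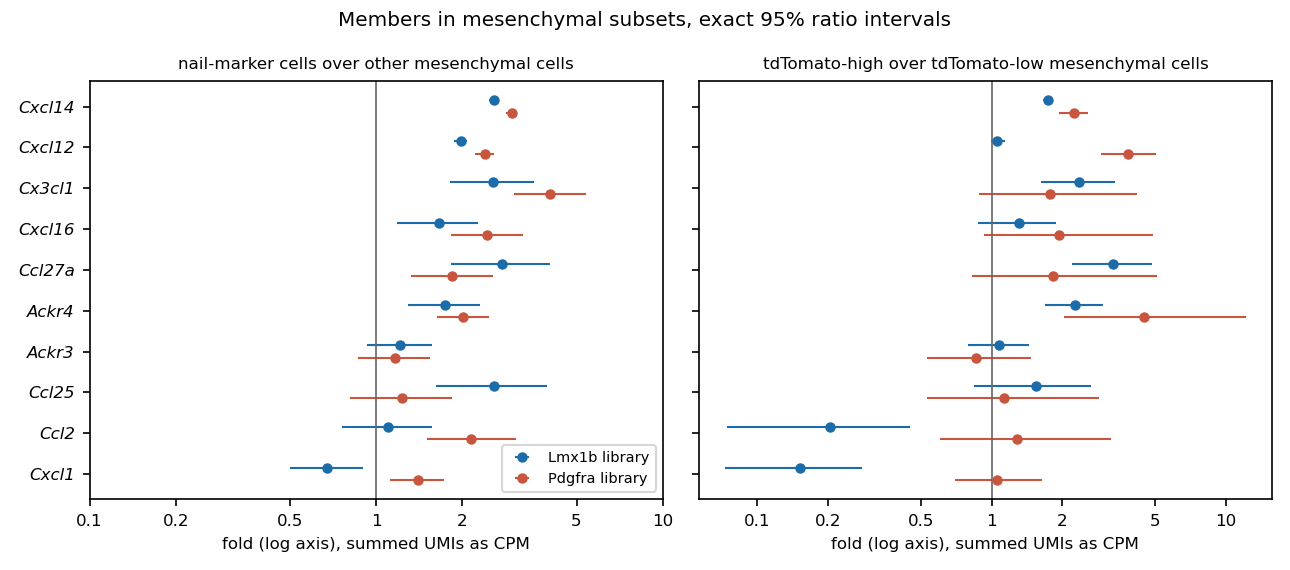
Fold (log axis) of 10 members in nail-marker over other mesenchymal cells (left) and tdTomato-high over tdTomato-low mesenchymal cells (right); points are libraries, bars exact 95% intervals of the ratio, and the vertical line is 1. Cxcl14 lies right of the line in all 4 contrasts (2.57, 2.97, 1.74 and 2.24), and Cxcl1 far left of it for tdTomato in the Lmx1b library (0.152).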

How the data were processed

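Gene-by-barcode tables of 2 droplet libraries were used as deposited. The deposited values are whole UMI counts per gene from the authors' run of Cell Ranger (version 4.0.0 per the file headers) on mm10 with a tdTomato sequence, per the labels' protocols. How barcodes were called as cells and whether animals were pooled was not given in the sources used here. All columns belonged to a library. Doublets were scored with Scrublet (scanpy 1.11.5) and the highest-scoring 0.8% per 1000 barcodes removed (287 and 203, of which 49 and 65 passed the other filters). Cells with under 500 genes or over 10% mitochondrial UMIs were dropped. A marker was on in a cell when its CPM there was above its CPM over all kept cells of the library. Cells went to the list of 17 with the highest share of markers on and at least 3 on, and ties stayed ungated (226 and 282 cells, medians 1309.5 and 1534 UMIs, holding 5.31% and 6.14% of the members' UMIs). Of 131 markers 128 were found. Nail-marker cells are a subset of the mesenchymal class.

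Levels were summed UMIs per 1000000 with exact Poisson intervals, ratios had exact conditional intervals, and shares Clopper-Pearson intervals, all at 95%. Where a side had 0 UMIs, 3 counts stood in for it in folds. No p-value was computed, because each line is 1 library. The fold script was tested on simulated data. Every measured member (at least 20 UMIs over gated cells) could be named, and other genes came from 6 lists of 73 genes. Members, lists, markers and the tdTomato threshold were chosen with earlier results of these data known. Alternatives were 2 other cell filters, no doublet removal, thinning to 3000 UMIs, mean CPM per cell, a stricter gate (4 markers on and a lead of 2), classes from clusters, and tdTomato thresholds of 800 and 3200 CPM. Leaving out each gene's highest cell, and nail subsets at 2 or 4 markers, were chosen after seeing the data. Python 3.11.15, numpy 2.4.6, scipy 1.17.1, pandas 2.3.3 and matplotlib 3.10.9 were used. Gene positions came from GENCODE vM21 and upstream sequences from RefSeq on GRCm38.p6. Values of 1 member are not reported here, though it is included in the counts.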

Additional observations from a re-analysis of the deposited data

Results flagged for a closer look

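In nail-marker mesenchymal cells Cxcl1 was lower than in other mesenchymal cells in the Lmx1b library (0.676-fold, 29.2 against 43.3 CPM) and higher in the Pdgfra library (1.40-fold, 33.0 against 23.7 CPM). The libraries thus pointed in opposite directions, and the difference between them was not tested.

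Among cells that no marker list placed, Cxcl5 in the Lmx1b library stood at 16.8 CPM, above its highest gated class of at least 20 cells (12.8 CPM, in mesenchymal cells). It came from 35 UMIs in 5 cells, 28 of them in 1. Ccl22, which encodes an attractant of regulatory T cells, was at 2.49 CPM in the unplaced cells of the Pdgfra library, from 5 UMIs in 2 cells, where the gated classes of that size had 0.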

How the results depend on the processing

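No paired analysis was possible because each line is 1 library and no result comes from a test. Of the counts of members past 2-fold, 142 stayed within 1.5 times of their value and 39 did not, over all alternatives; the cause was not tested. With a loose cell filter (200 genes, 25% mitochondrial UMIs), members lower in the Lmx1b library numbered 2 in endothelial cells and 1 in macrophages, and 6 were lower in tdTomato-high cells of the Pdgfra library. With a strict cell filter (1000 genes, 5% mitochondrial UMIs), which kept 921 and 476 cells, 7 members were higher in mesenchymal and 10 in endothelial cells of the Lmx1b library. Between libraries 5 were higher and 1 lower in the Lmx1b library in mesenchymal cells, 12 higher in endothelial, 1 higher in mural and 0 lower in macrophages, and 5 and 0 were lower in tdTomato-high cells of the Lmx1b and Pdgfra libraries. Without doublet removal 1 was lower in macrophages of the Lmx1b library.

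With cells thinned to 3000 UMIs, 4 members were higher in mural cells of the Pdgfra library and 5 in osteoclasts of the Lmx1b library. Between libraries 3 were higher and 0 lower in the Lmx1b library in mesenchymal cells, 2 lower in endothelial, 1 lower in mural, and 3 higher and 0 lower in macrophages. By tdTomato 1 was lower in the Lmx1b library, and 3 were higher and 0 lower in the Pdgfra library. With the mean of each cell's CPM, 2 were higher in endothelial cells and 0 lower in macrophages of the Lmx1b library, and 2 were higher and 5 lower by tdTomato in the Pdgfra library. The stricter gate gave 0 lower in macrophages and 2 higher by tdTomato in the Pdgfra library. Classes from clusters gave 2 higher in mural cells and 0 lower in macrophages of the Lmx1b library, and 4 lower by tdTomato in the Pdgfra library. A threshold of 800 CPM gave 3 higher by tdTomato in the Pdgfra library and one of 3200 CPM 4 lower in the Lmx1b library. Without the highest cell of each gene, chosen after seeing the data, 5 were higher in osteoclasts and 0 lower in macrophages of the Lmx1b library, and 6 and 0 were lower by tdTomato.

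Of 584 log2(CPM + 1) differences of named members under these alternatives, 272 were classed as the same as the main value, 305 as moved and 7 as reversed. These differences had 1 CPM added to each side, while the counting-error limits used to class them had none added. A value could therefore be classed as moved with the processing unchanged, and the 305 are not read as an effect of processing. Of the 584 differences 16 changed sign, 7 of them for a member past 2-fold on that scale. Ccl5 in T and NK cells went to a log2 difference of -1.40 and -0.65 with the strict cell filter, to -1.43 in the Lmx1b library with the stricter gate and to -1.72 in the Pdgfra library without its highest cell. Ccr3 in osteoclasts of the Lmx1b library went to -0.38 after thinning. Cxcl14 and Cxcl12 in nail-marker cells of the Pdgfra library went to -0.40 and -0.08 with the strict cell filter. Of those under 2-fold, nail-marker Ackr4 went to -0.17 in the Pdgfra library with that filter and to -0.10 in the Lmx1b library at 2 markers, and Cxcl16 to -0.63 in the Lmx1b library after thinning. Neutrophil, T and NK, osteoclast and dendritic values rest on few cells, and with the strict filter 2 and 4 T and NK cells were left.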
